A study of Mus musculus with 2 samples.

Results

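The 10 genes described here belong to cornification and to the epithelial surface, and were followed through single-cell RNA counts of the mouse corneal epithelium. They are Sprr1a, Cnfn, Asprv1, Ecm1, Dsg1a, Muc4, Nccrp1, Upk1b, Mal and Plac8, taken by name, and all 10 were among the 31053 genes of the matrix. The series asks how stem cell fate is regulated in the ocular epithelium. Its mice carry the genotype CycB1-GFP, a Cyclin B1 reporter whose green fluorescence marks cycling cells, and live GFP+ cells of the peeled corneal epithelium were sorted. There is 1 group, with no second genotype, treatment or time, and it has 2 replicates. The labels state no age or sex and no number of mice per replicate, so p-values measure the spread between these libraries only, and the spread between libraries may be technical. The 2 libraries, told apart by the barcode suffix, are called library 1 and library 2, because the suffix is not tied to a labelled replicate.

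A stratified squamous epithelium renews from a basal layer of dividing cells, and cells that leave it move upwards, stop dividing and are shed from the surface. Skin ends this path in cornification, in which transglutaminases cross-link small proline-rich proteins and other precursors under the membrane and desmosomes are remodelled. The cornea does not keratinise in health, and its uppermost cells instead carry membrane mucins that hold the tear film. Its cells express keratin 12, while keratin 15 marks basal cells of the limbus, the border zone with the conjunctiva.

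Promoter sequence from RefSeq (GRCm38.p6) was matched for 7 of the 10 members. Each sequence below is the 250 bases upstream of the annotated start, 5′ to 3′ on the gene's strand, with capitals for TATAAA and for TGANTCA, the core letters of an AP-1 element, both searched on either strand. Sprr1a and Ecm1 are shown because they are the chromosome 3 members, in windows chr3:92485882-92486131 and chr3:95739570-95739819 (both on the minus strand). Asprv1 (chr6:86627924-86628173, plus strand) and Muc4 (chr16:32735636-32735885, plus strand) are shown because they had the largest fitted differences with proliferation RNA, given further on.
Sprr1a: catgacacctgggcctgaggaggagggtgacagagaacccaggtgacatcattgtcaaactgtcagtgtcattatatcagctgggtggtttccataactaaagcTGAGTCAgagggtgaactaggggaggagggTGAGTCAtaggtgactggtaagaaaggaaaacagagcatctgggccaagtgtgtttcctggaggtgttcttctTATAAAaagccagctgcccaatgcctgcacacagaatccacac
Ecm1: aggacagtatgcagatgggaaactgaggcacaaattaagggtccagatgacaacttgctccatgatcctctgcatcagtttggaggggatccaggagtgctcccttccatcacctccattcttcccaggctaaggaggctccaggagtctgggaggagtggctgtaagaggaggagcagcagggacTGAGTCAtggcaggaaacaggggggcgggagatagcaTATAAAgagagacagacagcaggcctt
Asprv1: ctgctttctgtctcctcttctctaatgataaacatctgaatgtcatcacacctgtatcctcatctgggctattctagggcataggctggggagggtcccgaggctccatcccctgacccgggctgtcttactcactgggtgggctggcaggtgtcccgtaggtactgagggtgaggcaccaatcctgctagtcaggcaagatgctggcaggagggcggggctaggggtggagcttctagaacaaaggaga
Muc4: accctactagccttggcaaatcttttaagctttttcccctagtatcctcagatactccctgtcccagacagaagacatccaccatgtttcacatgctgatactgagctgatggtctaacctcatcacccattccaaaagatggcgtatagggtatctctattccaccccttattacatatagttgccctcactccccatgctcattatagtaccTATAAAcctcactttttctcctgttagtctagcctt
Sprr1a held TATAAA 43 bases before its start and TGANTCA at 146 and 116 bases. Ecm1 held them at 27 and 64 bases. Muc4 held TATAAA at 36 bases and no TGANTCA, and the Asprv1 window held neither. The matched windows not shown, those of Cnfn, Mal and Plac8, also held neither. Of 32851 RefSeq windows of this length, 12.4% held TATAAA and 6.75% held TGANTCA. These matches describe letters, not binding. In the gene annotation (GRCm38), Sprr1a and Ecm1 lay 3.25 Mb apart on chromosome 3, Cnfn and Nccrp1 3.17 Mb apart on chromosome 7, and Muc4 and Upk1b 5.99 Mb apart on chromosome 16.

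After filtering, 3187 cells of library 1 (median 5571 UMIs, the molecule tags by which each captured transcript is counted only once) and 3001 of library 2 (median 5886) were kept, and 5 barcodes occurred in both. The corneal label held, since Krt12 stood at 11115 and 12597 CPM (a gene's UMIs scaled to the total UMIs of the cells summed) and Pax6 at 512 and 438 CPM. Of 10 immune markers, 9 and 10 were detected, at a summed 16.9 and 47.2 CPM, while the goblet cell mucin Muc5ac had no UMI in either library.

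The cornified envelope and adhesion genes were mostly rare. Sprr1a, a cross-linked envelope precursor, had 497 UMIs in library 1 and 226 in library 2, or 26.5 and 12.7 CPM. Cnfn, a further envelope protein, was barely seen, with 3 and 11 UMIs in all. Asprv1, the protease that processes profilaggrin, stood at 21.2 and 154 CPM. Library 2 was thus 7.25 times higher for Asprv1 (95% interval 6.53 to 8.08, counting error only). Ecm1, a secreted glycoprotein of the epidermis and its basement membrane zone, had 63.8 and 45.1 CPM. Dsg1a, a desmosomal cadherin of suprabasal layers, had 25.2 and 34.4 CPM. Its reads may be shared with the near copies Dsg1b and Dsg1c, and those of Sprr1a with Sprr1b.

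Among the surface genes, the membrane mucin Muc4 had 16.5 and 50.1 CPM. Nccrp1, a relative of F-box proteins, had 7.94 and 19.2 CPM. Upk1b, a tetraspanin of uroplakin plaques, had 122 and 199 CPM, and Mal, a proteolipid of apical membrane sorting, had 297 and 597 CPM. Plac8, a small cysteine-rich protein, had 26.3 and 106 CPM. All 5 surface genes were thus higher in library 2, by 1.63 times for Upk1b up to 4.03 times for Plac8, while Sprr1a (0.480 times) and Ecm1 (0.708 times) were lower. These directions were also seen within cells with no proliferation RNA and within cells rich in it. With 1 library each, the difference between libraries has no test.

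RNA of the members was spread unevenly over cells. With every cell thinned to 2000 UMIs, 51.5% of library 1 and 60.4% of library 2 had at least 1 UMI of any member (73.4% and 80.4% unthinned). Mal was seen in 29.6% and 37.2% of thinned cells, and Asprv1 in 0.978% and 3.83%. The richest 1% of cells (32 and 30 cells) held 88.2% and 79.5% of all Asprv1 UMIs and 99.3% and 85.9% of those of Nccrp1. A single cell carried 111 of the 398 Asprv1 UMIs of library 1. For Upk1b the same share was 8.76% and 7.87%. The 5 and 18 cells with at least 3 immune markers, where RNA of these genes could be free RNA, held no member UMI in library 1. In library 2 they held 4 UMIs of Plac8 and 1 each of Ecm1, Upk1b and Mal. Their totals of 11417 and 41218 UMIs are too small to set a background for the rarer members.

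The keratin ratio asked whether each member was higher in Krt12-rich or in Krt15-rich cells. Krt15-rich cells can be limbal or conjunctival (divided further on), so the ratio is not a position between limbus and cornea. Cells with at least 5 UMIs of Krt12 and Krt15 together were split by the Krt12 share of that sum. The classes under 0.4, from 0.4 to 0.8 and above 0.8 held 663, 161 and 2304 cells in library 1, and 959, 164 and 1821 in library 2. The UMIs of each class were added up within a library, and edgeR tested these sums over 11138 genes with library as a block, and calls have a Benjamini-Hochberg adjusted p under 0.05. Of 9 members tested, 3 were higher and 3 lower above 0.8 than under 0.4, where 15.6% of all genes were called higher and 16.9% lower. The median log2 fold change of the 9 was 0.03, against 0.01 for all genes, so the members did not move as 1 group. Without the library block, 1 member (Dsg1a) passed.

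Dsg1a rose most. From low to middle to high share it went from 6.37 to 10.2 to 31.7 CPM in library 1 and from 4.77 to 20.4 to 49.0 CPM in library 2. Both low values lay below both high values, which was also so for Upk1b, and the share of all genes in that order was not counted. The log2 fold change from low to high was 2.92 (SE 0.21, edgeR, adjusted p = 2.69e-11). Upk1b went from 34.6 to 57.6 to 151 CPM and from 64.6 to 129 to 265 CPM. Its log2 fold change was 2.10 (SE 0.10, edgeR, adjusted p = 7.14e-16). These were the members called at both steps. From low to middle, Upk1b rose by 0.90 on the log2 scale (edgeR, adjusted p = 3.28e-05), and 2.95% of all genes were called higher. From middle to high, Dsg1a rose by 1.43 (edgeR, adjusted p = 0.000341), at a background of 2.92%. Mal rose from 189 to 327 CPM and from 377 to 716 CPM (log2 0.88, SE 0.13, edgeR, adjusted p = 0.000504). With high and low cells matched on depth, the adjusted p for Mal was 0.157 at a log2 fold change of 0.94.

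Sprr1a, Muc4 and Ecm1 went the other way. Sprr1a fell from 57.9 to 15.7 CPM in library 1 and from 16.3 to 10.9 CPM in library 2. The high class of library 1 thus lay only just below the low class of library 2. Its log2 fold change was -1.31 (SE 0.33, edgeR, adjusted p = 0.0344), and it was called under 9 of 13 alternatives. In library 1 alone the value was -1.82, in library 2 alone -0.54. Muc4 went from 28.5 to 13.1 CPM and from 71.1 to 40.2 CPM (log2 -0.91, SE 0.13, edgeR, adjusted p = 2.60e-06). It was also called from middle to high (-0.60, edgeR, adjusted p = 0.0402), where 4.14% of all genes were lower. With cells thinned to 2000 UMIs, the low-to-high change of Muc4 was -0.36 and its adjusted p 0.236. Ecm1 went from 79.5 to 57.2 CPM and from 63.8 to 37.3 CPM (log2 -0.60, SE 0.12, edgeR, adjusted p = 0.000215).

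Asprv1, Nccrp1 and Plac8 did not pass the test, and for Asprv1 and Nccrp1 the libraries disagreed in direction. Asprv1 stood at 26.3 CPM in the low and 18.5 in the high class of library 1, but at 125 and 176 CPM in library 2. Nccrp1 stood at 13.3 and 6.86 CPM, against 13.9 and 22.0 CPM. Plac8 stood at 23.8 and 25.6 CPM in library 1, a ratio of 1.08 (95% interval 0.848 to 1.38) that gives no clear direction. In library 2 it stood at 140.3 and 94.8 CPM. Cnfn had too few UMIs to be tested, with none in the low class and 2 and 11 in the high class.

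Markers of other cells moved along the ratio. Among 7 conjunctival markers, 5 were lower above 0.8 and none higher, and their summed level went from 2550 to 1805 CPM in library 1 and from 3692 to 856 CPM in library 2. Agr2, the only goblet marker with UMIs, was lower too. Immediate early genes, which dissociation can induce, were higher for 5 of 8, at a summed 3908 and 7314 CPM in library 1 and 1572 and 3328 CPM in library 2. Their part in the members' differences was not tested. Cells with no UMI of the proliferation genes Mki67 and Top2a made up 4.53% and 10.7% of the low class and 5.99% and 6.32% of the high class. Among cells with 5 or more such UMIs, an alternative chosen after seeing the data, 3 members were again higher and 3 lower, with Plac8 (-0.67, edgeR, adjusted p = 0.0125) in place of Sprr1a (-1.58, adjusted p = 0.181). These counts have no background, because the share of all genes called in that alternative is not given here.

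**Figure D1:**
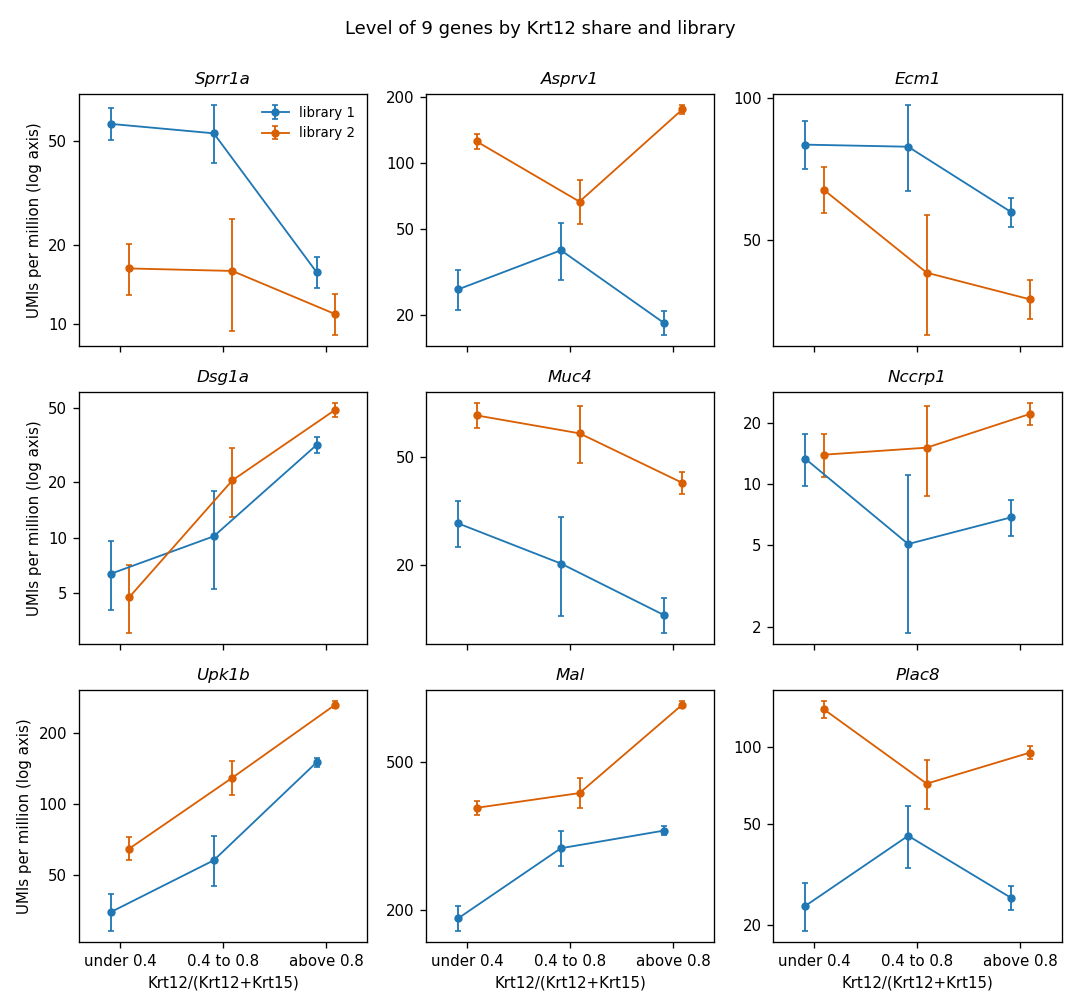
Level of 9 members in CPM (log axis, range set per gene) by Krt12/(Krt12+Krt15) class. Points are the UMI sums of library 1 (blue) and library 2 (orange), with 95% Poisson intervals for counting error. Dsg1a and Upk1b climbed over the 3 classes in both libraries, and Sprr1a, Muc4 and Ecm1 were lower in the high class. For Asprv1 and Nccrp1 the libraries differed in direction from the low to the high class, and Plac8 was lower in the high class of library 2 only. Cnfn, with 14 UMIs in all, is not drawn.

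Proliferation RNA separated the members far more. Although all cells were sorted as GFP+, 193 cells of library 1 (6.06%) and 231 of library 2 (7.70%) had no UMI of Mki67 or Top2a, which encode a chromosome coat protein and a topoisomerase of dividing cells. These were compared with as many cells that had 5 or more, matched on total UMIs (medians 3176 and 3219 in library 1, 3156 and 3373 in library 2). Of the 9 members tested, 8 were lower in the proliferating cells, where 8.14% of all 7606 genes tested were lower. The median log2 fold change of the 9 was -3.51, against -0.01 for all genes. Without the library block 4 members passed, and Sprr1a, Asprv1, Upk1b and Plac8 did not (edgeR, adjusted p = 0.0577, 0.171, 0.0745 and 0.265).

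Asprv1 was the extreme. In library 1 it had 298 UMIs (428 CPM) in cells without proliferation RNA and none in the matched proliferating cells, so it was at least 104-fold higher, counting none as 3 UMIs. Those 298 UMIs lay in 15 of the 193 cells, and 111 of them in a single cell. In library 2 it had 1963 UMIs (2320.0 CPM) against 10 (11.3 CPM), a ratio of 206, and the 1963 lay in 66 of 231 cells. The matched proliferating cells are 1 random draw. Over all 2288 and 2245 cells with 5 or more UMIs, not matched on depth, Asprv1 stood at 4.92 and 36.9 CPM. The fitted log2 fold change of -8.02 (SE 0.33, edgeR, adjusted p = 2.28e-08) depends on the prior count, given the empty group. Both values without proliferation RNA lay above both others, as they did for every tested member, the uncalled Ecm1 included. The share of all genes in that order was not counted.

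Muc4 followed, at 211 against 2.75 CPM in library 1 and 593 against 4.51 CPM in library 2. Its fitted change was -6.89 (SE 0.29, edgeR, adjusted p = 2.28e-08). Only 2 and 4 UMIs stood behind the lower values, so the ratios of 76.7 (95% interval 20.9 to 639) and 132 (51.1 to 485) are loose. Over all cells with 5 or more UMIs, not matched on depth, Muc4 stood higher, at 8.65 and 20.7 CPM, which makes both ratios smaller. Nccrp1 stood at 164 against 2.75 CPM and 282 against 2.25 CPM, again with 2 UMIs in each lower group (log2 -6.57, SE 0.33, edgeR, adjusted p = 1.33e-07). Over all cells with 5 or more UMIs it was lower in library 1 (1.77 CPM) and higher in library 2 (5.04 CPM) than in the draw.

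Plac8 and Mal were also lower in the proliferating cells. Plac8 had 159 against 4.13 CPM and 709 against 36.1 CPM, a log2 change of -4.58 (SE 0.24, edgeR, adjusted p = 1.42e-07). Over all cells with 5 or more UMIs, not matched on depth, Plac8 stood at 19.7 and 71.2 CPM. Mal had 1314 against 198 CPM and 3845 against 250 CPM, a log2 change of -3.51 (SE 0.27, edgeR, adjusted p = 2.65e-06). Sprr1a had 108 against 17.9 CPM and 56.7 against 3.38 CPM, a log2 change of -3.15 (SE 0.34, edgeR, adjusted p = 5.08e-05). Among the called members, Dsg1a and Upk1b had the smallest fitted changes. Dsg1a fell from 54.6 to 26.2 CPM and from 85.1 to 20.3 CPM (log2 -1.75, SE 0.30, edgeR, adjusted p = 0.00138), but DESeq2 gave an adjusted p of 0.150. Upk1b fell from 191 to 123 CPM and from 386 to 162 CPM (log2 -1.13, SE 0.18, edgeR, adjusted p = 0.00106).

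Ecm1 was the member not called (log2 -1.58, SE 0.64, edgeR, adjusted p = 0.207). It stood at 243 against 34.4 CPM in library 1, a ratio of 7.05, and at 72.1 against 66.5 CPM in library 2, a ratio of 1.08 (95% interval 0.745 to 1.58). Under 9 of 13 alternatives Ecm1 was called lower, so its side of the threshold is not settled here. Cnfn had none and 6 UMIs in cells without proliferation RNA and 1 and none in the proliferating cells, too few to test.

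Most of the drop came with the first UMIs. Over all kept cells, Asprv1 stood at 428 CPM at no Mki67 or Top2a UMI, 8.87 at 1 to 4, 4.80 at 5 to 19 and 5.42 at 20 or more in library 1. In library 2 the 4 values were 2320.0, 116, 33.5 and 47.0 CPM. Mal followed the same course, with 1314, 300.3, 255 and 226 CPM in library 1 and 3845, 681, 398 and 423 CPM in library 2. Upk1b stayed between 99.0 and 135 CPM in the 3 proliferating bins of library 1 and between 187 and 194 CPM in those of library 2. Depth was not matched in these bins.

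**Figure D2:**
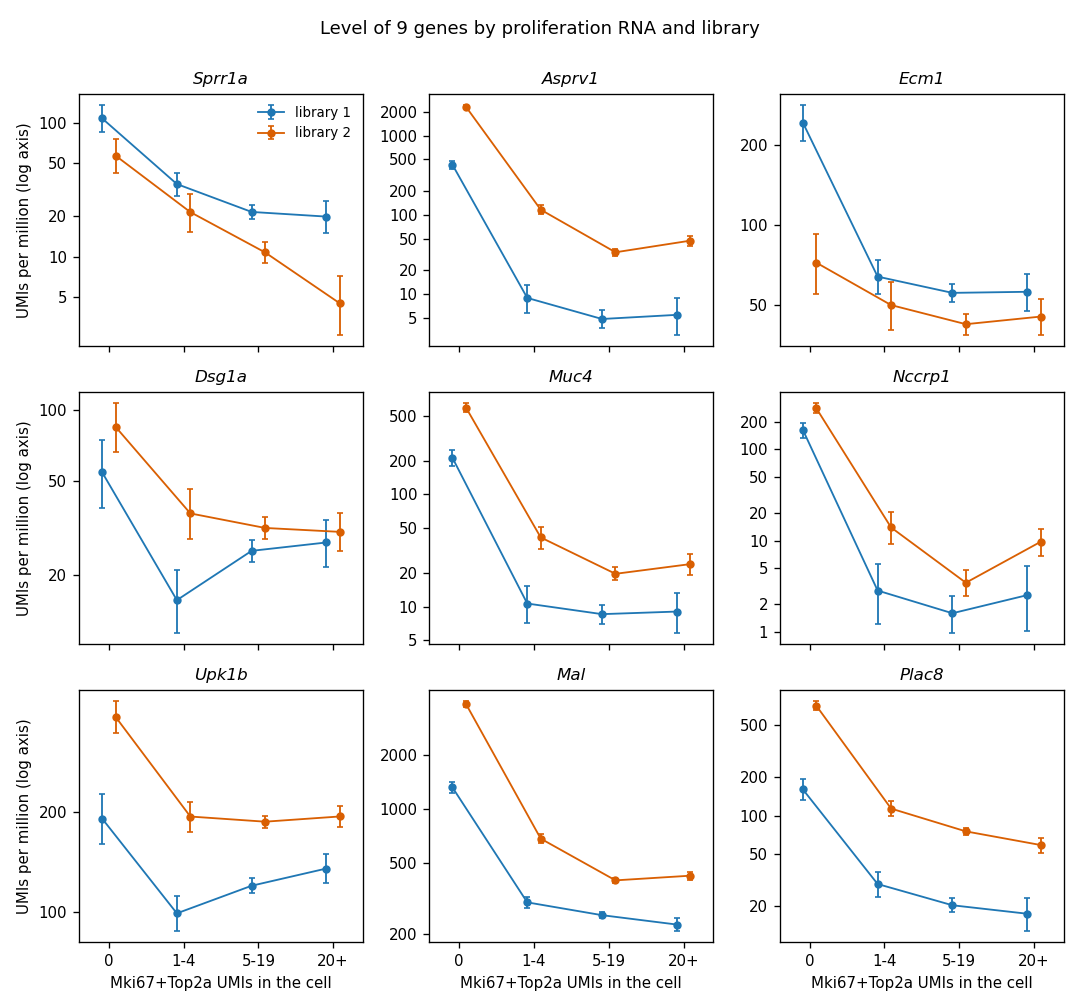
Level of 9 members in CPM (log axis, range set per gene) by the Mki67+Top2a UMIs of the cell, over all kept cells. Points are the UMI sums of library 1 (blue) and library 2 (orange), with 95% Poisson intervals for counting error. Each member was highest in cells with no Mki67 or Top2a UMI, and the bins from 1 to 4 upwards lay close together for Asprv1, Muc4, Nccrp1 and Mal compared with that first step.

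Conjunctival markers moved with proliferation RNA as well. All 7 were lower in the proliferating cells, and their sum went from 6250 to 1226 CPM in library 1 and from 7337 to 967 CPM in library 2. Krt12 also went from 16383 to 10482 and from 18799 to 8144 CPM, and Krt15 from 3277 to 1384 and from 8807 to 3373 CPM. Summed immune markers went from 44.9 to 196 CPM in library 2, and without immune-type cells, a setting added after seeing the data, 9 members were lower. For that setting the share of all genes called lower is not given here. The part of these markers in the members' fall was not tested.

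The contrast was repeated within keratin classes. Above 0.8, with 138 and 115 cells per class in libraries 1 and 2, all 9 tested members were lower in the proliferating cells, at a background of 7.66%. The 7 conjunctival markers had a median log2 fold change of -2.89 there, though none of them was called. Their part in the members' fall was not tested. Under 0.4, with 30 and 94 cells per class, 9 of 9 were lower, at a background of 4.27%. Conjunctival markers moved with the members there, with 3 of 7 called lower (Krt4, Krt7 and Krt8) and a median of -2.04. Mal went from 1302 to 155 CPM and from 5532 to 344 CPM in the high class, and from 1318 to 82.4 CPM and from 1784 to 129 CPM in the low class. Plac8 went from 174 to 15.5 CPM and from 901 to 26.3 CPM in the high class, and from 123 to 8.24 CPM and from 505 to 35.7 CPM in the low class. Ecm1, called in both classes, went from 166 to 40.7 CPM and from 60.2 to 30.7 CPM in the high class (log2 -1.79, edgeR, adjusted p = 1.77e-05). In the low class it went from 386 to 82.4 CPM in library 1 and from 92.4 to 65.8 CPM in library 2, a ratio of 1.40 in library 2 (95% interval 0.801 to 2.49), and that call held under 5 of 10 alternatives. The Dsg1a call in the low class rests on 2 and 5 UMIs against none. Few cells also carried other members among the 30 low-class cells of library 1 without proliferation RNA. For Nccrp1 the richest cell held 32 of 33 UMIs, for Muc4 22 of 28, for Sprr1a 15 of 19 and for Mal 91 of 150. The low-class call of Sprr1a held under 6 of 10 alternatives. Without the depth match, 4 members were called in the low class.

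The difference between these contrasts was called for Asprv1 (log2 -7.04, SE 1.08, edgeR, adjusted p = 6.28e-05), where 0.0763% of all genes were called lower. Above 0.8 it had 232 and 1535 UMIs in cells without proliferation RNA and none in the matched proliferating cells of either library. Under 0.4 it had 38 against 1 and 377 against 12 UMIs. The fitted size depends on the prior count and on the 1 draw of matched cells. In library 2 the whole class above 0.8 held 2030 Asprv1 UMIs, while all cells with 1 to 4 Mki67 and Top2a UMIs held 216. Proliferating cells above 0.8 outside the draw therefore also carried Asprv1 in that library. The call held under 4 of 10 alternatives. For the other 8 members the adjusted p was 0.926 or higher, which does not show that the contrasts were alike.

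The low-share cells were then divided, because they can hold limbal and conjunctival cells. Krt4/Krt13-positive cells (3 or more UMIs of these conjunctival keratins together, no Gpha2) numbered 66 and 89, and Gpha2-positive cells (3 or more UMIs of this limbal gene, no Krt4 or Krt13) numbered 159 and 277. Of the 5 remaining conjunctival markers tested, 4 were higher in the first class, led by Krt19, Krt6a and Krt7. Of 4 limbal markers tested, 2 were lower there (Trp63 and Ifitm3) and none was higher, with a median log2 fold change of -0.65. Krt15, which helped to define the low share and was not tested, went against the names, at 12129 against 4870 CPM in library 1 and 18696 against 6335 CPM in library 2. The classes are therefore named by their genes.

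Of 8 members tested, 7 were higher in the Krt4/Krt13-positive cells, at a background of 10.2%, and 4 without the library block. Agr2, the only goblet marker with UMIs, was higher too (90.5 against 47.6 CPM in library 1, 135 against 48.6 CPM in library 2), and Vim, the only keratocyte marker tested, was lower (log2 -2.51, edgeR, adjusted p = 0.00704). Their part in the members' differences was not tested. Mal stood at 829 against 34.8 CPM in library 1 and 1412 against 60.7 CPM in library 2 (log2 4.61, SE 0.14, edgeR, adjusted p = 4.76e-11). Muc4 had 77 UMIs against none (at least 47.5-fold higher) and 326 against 5.31 CPM. Nccrp1 had 44 and 35 UMIs against none in either library, or at least 27.1-fold and 33.5-fold higher. The 44 lay in 4 of 66 cells, and 32 of them in a single cell, so the library 1 bound rests mostly on that cell. None among 159 and 277 cells allows a level of up to 3.86 and 2.28 CPM, the value of 3 UMIs. Asprv1 stood at 117 against 3.86 CPM and 639 against 6.83 CPM (log2 6.28, SE 0.27, edgeR, adjusted p = 1.69e-09). Plac8 (log2 3.95) and Sprr1a (log2 3.71) were also called.

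Upk1b differed less, at 71.4 against 39.9 CPM and 120 against 40.2 CPM (log2 1.35, SE 0.24, edgeR, adjusted p = 0.00141). Ecm1 did not pass (log2 0.70, SE 0.25, edgeR, adjusted p = 0.0752), with 171 against 74.7 CPM in library 1 and 67.4 against 69.0 CPM in library 2. Dsg1a, not tested, had 9 and 5 UMIs against none and 1. Cells with no Mki67 or Top2a UMI made up 10.6% and 34.8% of the Krt4/Krt13-positive cells and 2.52% and 10.1% of the Gpha2-positive cells. Among cells with 5 or more such UMIs, compared after seeing the data, 5 members were still called higher. The share of all genes called in this setting is not given here, so that count has no background. Mal was then at log2 3.65, Muc4 at 5.53 and Upk1b, no longer called, at 0.50 (edgeR, adjusted p = 0.341).

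**Figure D3:**
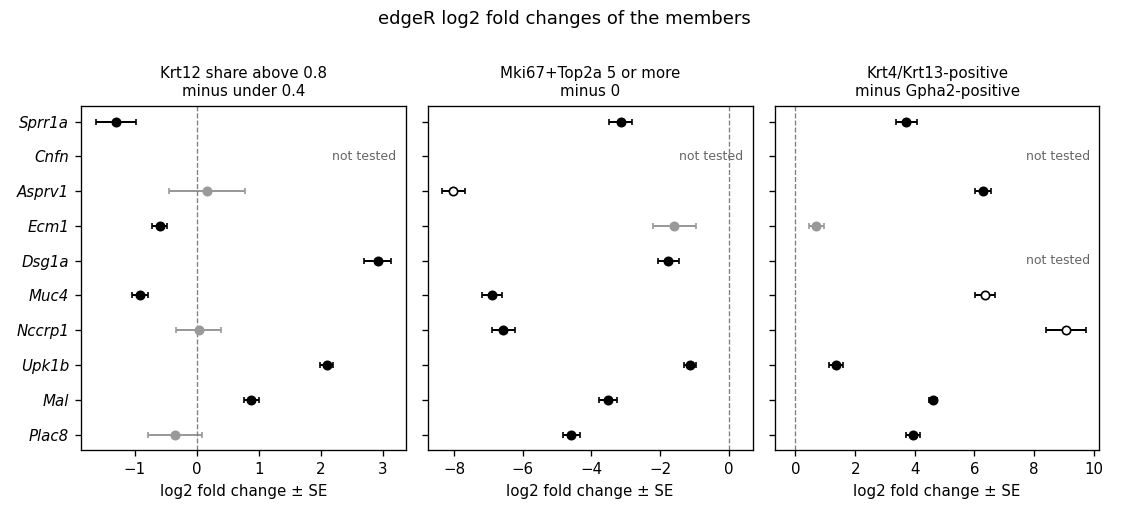
Fitted log2 fold changes (± SE) of the members between Krt12 classes (left), by proliferation RNA (middle) and between keratin-defined low-share cells (right), each panel on its own axis. Black marks an edgeR adjusted p under 0.05, grey a value that did not pass, and an open symbol a gene with no UMI in the lower group of at least 1 library. Members lie on both sides of 0 on the left, all tested members lie below 0 in the middle, and all lie above 0 on the right.

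Members were found together in few cells. In thinned cells, 12 of library 1 and 50 of library 2 had 5 or more of the 10 members. Of these, 9 and 32 had no Mki67 or Top2a UMI, and 7 and 36 had a Krt12 share above 0.8. Most thinned cells had such a share, 2039 of 2862 in library 1 and 1622 of 2664 in library 2. Cells with 5 or more members made up 6.62% (95% interval 3.07 to 12.2%) and 19.5% (13.8 to 26.4%) of cells without proliferation RNA. Among cells with 5 to 19 Mki67 and Top2a UMIs they made up 0.105% and 0.524%. These exact binomial intervals cover counting error only, and cells of 1 library are not replicates. Asprv1 was seen in 9 of the 12 and 43 of the 50 cells, and Mal in all 12 and 50. Ecm1 was seen in 3 and 13, and the 12 and 50 cells held 2.63% and 5.74% of its UMIs. Because these cells were picked for holding the members, frequent detection of members in them follows from the choice. Their median UMIs before thinning were 8118 and 5797, against 5571 and 5886 in all kept cells.

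**Figure D4:**
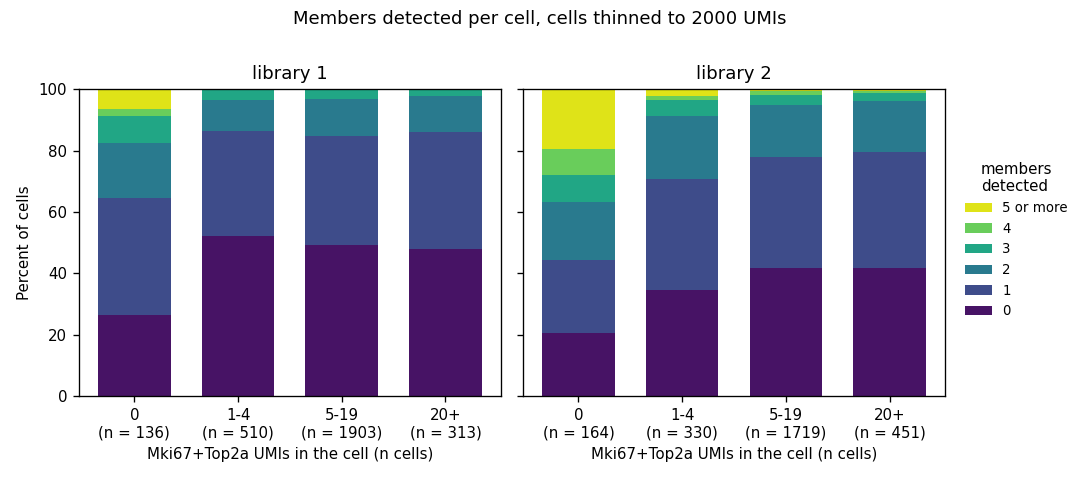
Percent of cells (0 to 100, stacked) with 0, 1, 2, 3, 4 or 5 and more of the 10 members detected, by the Mki67+Top2a UMIs of the cell, in cells thinned to 2000 UMIs. Cells with 5 or more members made up 6.62% and 19.5% of the first bar in libraries 1 and 2 and at most 2.12% of any other bar.

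Within a library, correlations over cells of natural log counts scaled to cell depth were highest among Muc4, Nccrp1 and Asprv1. For Muc4 and Nccrp1, Pearson's r was 0.613 over 3187 cells and 0.708 over 3001. For Asprv1 with Nccrp1 it was 0.550 and 0.775, and for Asprv1 with Muc4 0.535 and 0.771. Mal and Plac8 reached 0.285 and 0.437, while Ecm1 and Mal reached 0.038 and 0.010. These values describe cells that share a library and its depth range.

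Across 5513 genes of at least 20 CPM in both libraries, those whose pattern over cells was most like the members' mean were, in order, Krt6b, Hopx, Gsta4, Gsto1, Upk3bl, Clic3, Pdzk1ip1, Krt13, Spink5 and Calml3. Krt6b, a keratin of stressed and suprabasal epithelium, had r = 0.539 and 0.753 and stood at 1565 against 62.0 CPM and 2290 against 29.3 CPM in cells without proliferation RNA and matched proliferating cells. Hopx, a homeodomain protein, had r = 0.435 and 0.626. Krt13 is also among them, so the split by Krt4 and Krt13 uses a gene that varies with the members.

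Other genes of the same processes were counted with the proliferation contrast, in which 8.14% of all genes were called lower and 6.94% higher. Of 10 further genes tested from the cornified envelope list, 8 were lower in the proliferating cells. Among them were the protease inhibitor Cst6 (-2.24) and suprabasin, Sbsn (-1.94), on the log2 scale. The 8 also count Hopx (-4.10), which is in that list but is a homeodomain protein and not an envelope protein. The median of the 10 was -1.87. Of 14 surface mucin, uroplakin and barrier genes, 13 were lower. Among those of at least 20 CPM the largest falls were of the membrane mucins Muc20 (-4.08), Muc15 (-3.54) and Muc1 (-3.42), and the median of the 14 was -1.32. The claudin Cldn23, below that level and named after its value was seen, was at -5.41. Of 10 desmosome genes, 5 were lower, including Dsc2 (-1.49), Dsg3 (-1.12) and Pkp3 (-0.94). Of 15 differentiation transcription factors, 7 were lower, with Zfp750 at -1.67, Elf3 at -1.63 and Ovol1 at -1.51. Among 14 basal layer genes, 2 were lower, Lama3 (-1.10) and Krt5 (-0.65), and none was higher, which is near the share over all genes. The median of all genes was -0.01.

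Between the keratin-defined low-share classes the same lists stood as follows. In the Krt4/Krt13-positive cells 11 of 12 cornified envelope genes, 15 of 15 surface genes, 8 of 9 desmosome genes and 10 of 16 transcription factors were higher, where 10.2% of all genes were higher and 7.35% lower. Examples were Hopx (log2 4.96), in the envelope list though a homeodomain protein, the water channel Aqp5 (3.24), Dsc2 (2.31) and Zfp750 (3.19). Of 14 basal layer genes, 1 was higher, Krt5 (0.56), and 10 were lower, including the integrin Itga3 (-2.96), the laminin chain Lamb3 (-2.03) and the hemidesmosome collagen Col17a1 (-1.89).

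Along the keratin ratio these lists split, as the members did, against 15.6% of all genes called higher and 16.9% lower. Above 0.8, of 15 cornified envelope genes 4 were higher, such as Cst6 (1.38), and 8 lower, such as Klk10 (-3.24) and Sbsn (-1.85). Of 15 surface genes 4 were higher, such as Upk3bl (2.24) and Lypd2 (5.72), and 5 lower, such as Cldn3 (-4.12). Of 11 desmosome genes 4 were higher and 3 lower, and of 17 transcription factors 4 were higher, among them Klf4 (2.03), and 9 lower, among them Cebpa (-1.05). Basal layer genes were higher for 8 of 16 and lower for 3, with Col17a1 at 1.34. The counts of 4 of 17 and 3 of 16 lie near those shares.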

How the data were processed

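The authors deposited 1 matrix of UMI counts per gene and barcode (10x Genomics Chromium 3′ v3). Cell Ranger 3.1.0, Seurat 5.0.0 and the builds GRCm38 and mm10 stand in the submitters' processing notes. How cells were called and whether library depths were equalised is not given in the sources used here. No column of an unmapped sample was met (0). Of 6752 barcodes, 6188 had at least 500 genes and a mitochondrial share below 20%, and these were analysed. Scrublet marked 4 cells (0.0646%), too few to have worked, so doublets were kept, and removing the top 3% by score was an alternative.

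UMIs were summed per library and cell class (30 cells or more) and tested with edgeR 4.0.16 in R 4.3.3 (quasi-likelihood, robust, TMM, filterByExpr, library as a block). P-values were Benjamini-Hochberg adjusted over all genes tested, with a threshold of 0.05. Genes that define a class were left out of counts. The fits have 6, 4, 8 and 4 sums and 2, 1, 3 and 1 residual degrees of freedom (keratin ratio, proliferation RNA, both, low-share cells), and were tested on simulated data. Sums are paired because classes of 1 library come from the same sequenced sample. DESeq2 1.42.0, RLE scaling, other filters and limits were alternatives. Shares came from cells thinned to 2000 UMIs (scanpy 1.11.5 for Scrublet). Intervals are 95% exact Poisson or binomial and cover counting error only.

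All 10 members are named in each comparison. Of each list, members past the threshold are counted and at most the 3 largest per direction with 20 CPM or more are named. The members and lists were chosen with earlier results of these data known.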

Additional observations from a re-analysis of the deposited data

Results flagged for a closer look

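Asprv1 was marked because its fall with proliferation RNA differed between the keratin classes by the test of the difference itself. The log2 fold change between cells with 5 or more and with no Mki67 or Top2a UMIs was lower by 7.04 above a Krt12 share of 0.8 than under 0.4 (-7.04, edgeR, adjusted p = 6.28e-05). In the class above 0.8 both libraries had no Asprv1 UMI in the matched proliferating cells, so the size depends on the prior count. It also depends on which cells were drawn, since in library 2 proliferating cells of that class outside the draw held Asprv1 UMIs. The adjusted p ranged from 5.63e-07 to 1 over 10 alternatives.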

How the results depend on the processing

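Without the replicate block, which gives up the pairing of sums by library, fewer calls were made. Between keratin classes 1 member was higher and 0 lower by edgeR (687 and 864 of all genes, against 1739 and 1884), with proliferation RNA 4 members were lower (321 genes higher, 257 lower), above 0.8 there were 4 (264 and 255 genes), under 0.4 there were 2 (184 and 103 genes), and between low-share classes 4 were higher (246 genes lower). DESeq2 called fewer genes of all, higher and lower, in each comparison: 768 and 999 between keratin classes, 158 and 145 with proliferation RNA, 145 and 159 above 0.8, 114 and 112 under 0.4, and 226 and 82 between low-share classes. Thinned cells gave 1005 and 1164 genes between keratin classes. Without the depth match 917 genes were higher and 1042 lower with proliferation RNA, and 4 members were lower under 0.4. The direction of Asprv1 in the difference of contrasts turned to 1.33 (adjusted p = 1) with at least 1000 genes per cell, a setting that leaves the low-share pair of library 1 with 23 cells and out of the fit, as does a mitochondrial limit of 10% with 28. Leaving out a library left no residual degrees of freedom, so it gave values and no counts.

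The ratio of library 2 to library 1, taken after seeing the data within cells of 5 or more Mki67 and Top2a UMIs, was 1.01 for Cnfn, 2.39 for Muc4, 1.54 for Upk1b, 1.62 for Mal and 3.62 for Plac8. Within cells with none it was 5.42 for Asprv1, 0.297 for Ecm1, 1.56 for Dsg1a, 1.73 for Nccrp1, 2.02 for Upk1b and 2.93 for Mal. The share of cells with any member was 42.4% and 53.1% at 1500 UMIs and 73.4% and 80.4% without thinning, so it follows depth. The cause of the other shifts was not tested. With 2 libraries, depth limits most the rare members, of which Cnfn could not be tested.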
